A study of Mus musculus with 7 samples.

Results

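The 10 genes followed here serve Wnt ligand production and Wnt reception, and were measured in RNA of sorted mouse Paneth cells, the crypt-base cells that secrete antimicrobial granules in the small intestine. They were chosen by name as the 4 ligand genes Wnt3, Wnt6, Wnt9b and Wnt11, the ligand acyltransferase gene Porcn, the Frizzled receptor genes Fzd5 and Fzd7, the co-receptor genes Lrp5 and Lrp6, and the R-spondin receptor gene Lgr4. These are 10 of the 52550 genes counted, and 8 of the 10 passed the filter on low counts, while Wnt6 and Wnt11 did not. All animals carried the Lgr5-EGFP-IRES-CreERT2 knock-in, which places a fluorescent reporter and an inducible recombinase in the Lgr5 locus, on the C57BL/6J strain. The DSS group of 4 libraries received 3% dextran sulfate sodium (DSS), a sulfated sugar polymer that damages the gut lining, in drinking water for 7 days and was killed 3 days after its removal. The water group of 3 libraries drank water only. The ages were 12, 12 and 10 weeks for water 1 to 3, numbered in accession order, against 12 weeks for DSS 1 and 10 weeks for each of DSS 2 to 4. RNA was isolated on separate days for the groups, so isolation day and group cannot be told apart. The zygosity of the knock-in and whether each library is a separate animal are not stated, so p-values speak only to the spread among these libraries, which may be technical.

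Wnt proteins are lipid-modified secreted signals. The acyltransferase Porcn attaches the lipid in the endoplasmic reticulum, the carrier Wls takes the ligand to the cell surface, and a Frizzled receptor binds it together with Lrp5 or Lrp6, after which beta-catenin is spared from destruction and acts with TCF factors on target genes. R-spondins bound to Lgr4 or Lgr5 hold back the ubiquitin ligases Znrf3 and Rnf43, which otherwise remove Frizzled receptors from the membrane. In the crypt, Paneth cells are known as an epithelial source of Wnt3 for the neighbouring stem cells, and Fzd5 is known as the receptor through which Wnt signals drive Paneth cell maturation.

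The libraries held between 23175708 and 32451653 counts. The sort was marked by its genes: 11 Paneth cell markers, Lyz1 and Mmp7 among them, summed to between 232800 and 249800 CPM in water and between 115500 and 199600 CPM in DSS. CPM are counts brought to a common library size with TMM scaling, which takes most genes to be unchanged between libraries. Lyz1, the highest of the 11, averaged 103100 CPM in water and 53020 CPM in DSS. Of the 11 log2 changes, DSS relative to water, 9 were below 0 and 2, those of Ang4 and Sox9, above. All DSS libraries lay below all water libraries for 4 of the 11, beside 7.52% of genes tested, and Mmp7 overlapped. Tuft cell markers summed to between 434 and 464 CPM in water, and to 432, 806, 792 and 414 CPM in DSS 1 to 4. Enteroendocrine markers varied widely within a group, with sums of 74.0, 1556 and 2785 CPM in water 1 to 3 and 563 to 1327 CPM in DSS. Goblet cell markers summed to between 5928 and 7313 CPM in water and between 5171 and 9800 CPM in DSS. The highest goblet sum was in DSS 4. Of the 6 goblet markers, 3 had log2 changes above 0, DSS relative to water, and 3 below. Clca1 stood higher in all 4 DSS libraries (193 to 754 CPM) than in water (74.3 to 114 CPM), as did 7.4% of the genes tested. Agr2 stood lower in all 4 DSS libraries (519 to 941 CPM) than in water (945 to 1084 CPM), as did 7.52% of the genes tested. The part of these cells in the values of the members was not tested. The 9 crypt base stem cell markers summed to between 4488 and 5354 CPM in water and between 4286 and 5300 CPM in DSS. Olfm4 and Slc12a2 led this sum, averaging 2565 and 1359 CPM over the 7 libraries. Of the 9 log2 changes, 5 were above 0 and 4 below. Ascl2 was at 0.37 ± 0.11 and Lgr5 at -0.70 ± 0.26 (SE, edgeR adjusted p of 0.190 and 0.247). In bulk RNA, fewer cells of a type and less RNA per cell cannot be told apart.

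None of the 8 tested members was called between DSS and water. The edgeR quasi-likelihood test called 0 of 17449 genes higher (0.0%) and 0 lower (0.0%) at an adjusted p under 0.05, with 0.123 as its smallest adjusted p. Before adjustment, 15.7% of all genes had an edgeR p under 0.05, 8.36% on the higher side and 7.35% on the lower side. So did 2 of the 8 members, Fzd5 on the higher and Porcn on the lower side. Of the 8 log2 estimates, 4 lay above 0 and 4 below, with a median of 0.007 beside -0.002 over all genes tested. With DESeq2, 1 member passed, Fzd5. It called 3.14% higher and 2.62% lower of the 11697 genes to which it gave an adjusted p, and it gave none to Wnt9b. limma-voom with quality weights called 0 members, and 0 genes in all, with 0.0% in each direction. The 7 libraries of each gene are set out in the plot of the 10 genes by library.

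**Figure D1:**
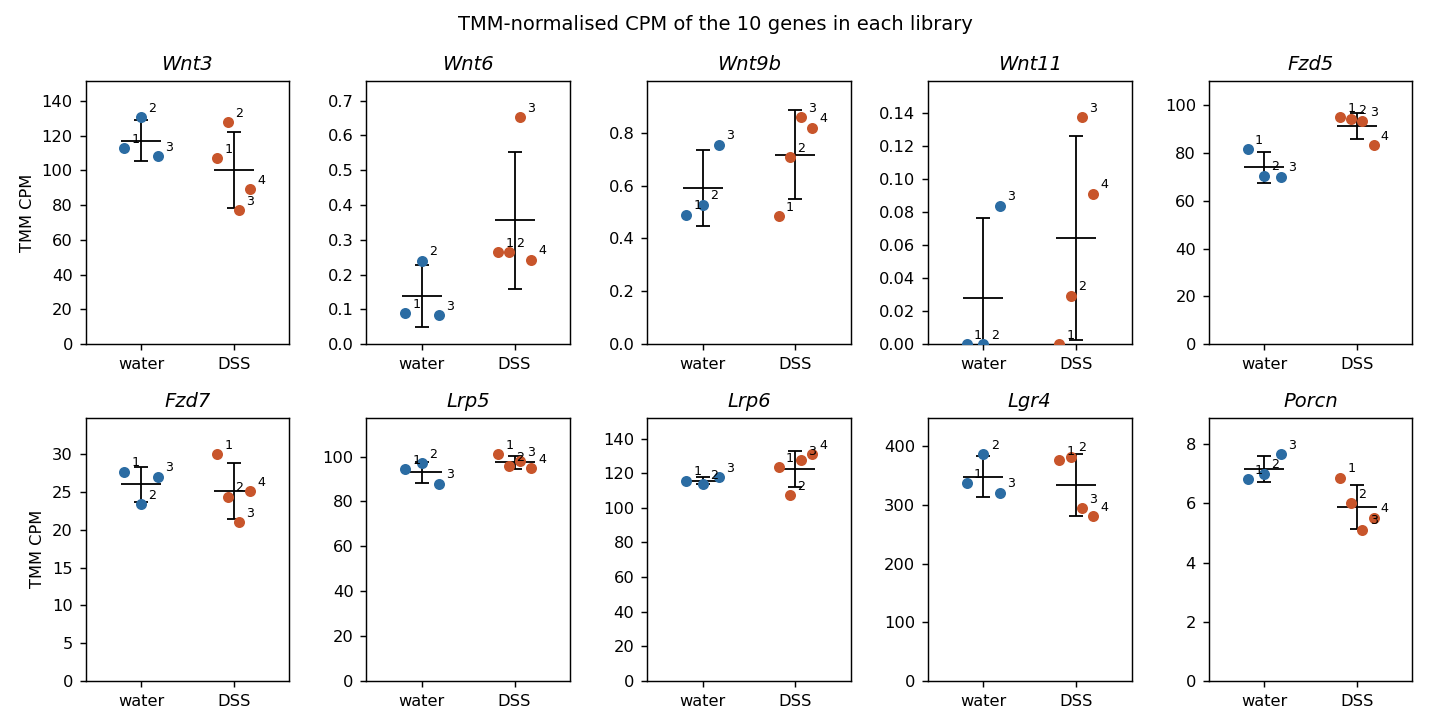
TMM-normalised CPM of the 10 genes in each library, with water in blue and DSS in orange. Points carry the replicate number, and bars give the mean ± SD (n = 3 and 4). The 4 DSS points of Fzd5, from 83.3 to 94.9 CPM, lie above the 3 water points, from 70.1 to 81.5 CPM, and those of Wnt3, Fzd7, Lrp5, Lrp6, Lgr4 and Porcn overlap.

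Wnt3 supplied nearly all Wnt ligand RNA in the sorted cells. The gene (ENSMUSG00000000125.5) occupies bases 103774150 to 103817957 of chromosome 11 (mm10, the build of the count files), plus strand. Its level was 113, 130 and 108 CPM in water 1 to 3, and 107, 128, 77.1 and 89.0 CPM in DSS 1 to 4. The groups overlapped: DSS 2 lay near the highest water library, and DSS 1, DSS 3 and DSS 4 lay below all 3, DSS 1 by little. Water libraries averaged 117 ± 11.8 CPM and DSS libraries 100.2 ± 22.1 CPM (SD, n = 3 and 4). The log2 change, DSS relative to water, was -0.22 ± 0.16 (SE), with an edgeR adjusted p of 0.533 and a 95% interval of the fold from 0.669 to 1.09. Scaling by library totals alone put the estimate at 0.000766, where the median of all genes stood at 0.23. Leaving out DSS 3 gave -0.12, and leaving out DSS 2 gave -0.36. The lowest estimate, -0.40, came from DSS 4 alone against the 3 water libraries, with which it shares a run field in its name. The 2 DSS libraries with the lowest Wnt3, DSS 3 and DSS 4, also had the lowest Paneth marker sums, 115500 and 121300 CPM, while DSS 2 had 161300 CPM; the part of the marker level in the Wnt3 values was not tested.

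Within a library, Wnt3 was set against the sum of the 18 other Wnt genes per length of exon, which does not depend on scaling between libraries. Wnt3 made up 94.0% ± 0.622 of the FPKM sum of the 19 Wnt genes in water and 94.1% ± 1.09 in DSS (SD, n = 3 and 4). FPKM here is CPM per kilobase of exon. Wnt3 exceeded the summed others 16.0-fold, 17.5-fold and 14.1-fold in water 1 to 3, and 16.3-fold, 18.8-fold, 12.3-fold and 17.6-fold in DSS 1 to 4. The mean log2 ratio differed by 0.02 between the groups, with p = 0.857 in the exact two-sided permutation test over 35 splits (adjusted p = 0.971 over the 4 ratios tested). With 3 against 4 libraries this test cannot go below 0.0571, so it could not pass at 0.05. That limit follows from doubling the smaller tail, and counting splits by absolute difference, an alternative chosen after seeing the data, lowers it to 0.0286. The Wnt3 ratio again gave an exact permutation p of 0.857 (adjusted p = 0.943).

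The other 3 ligands were close to the limit of detection, so the sorted cells held little RNA of them. A count of 3 corresponds to between 0.0924 and 0.129 CPM before TMM scaling. Wnt9b (ENSMUSG00000018486.2, chromosome 11 from 103727364 to 103749821, minus strand) lies 24.3 kb from Wnt3 and is transcribed away from it. It had 11, 11 and 18 counts in water 1 to 3 and 11, 24, 25 and 27 counts in DSS 1 to 4, or 0.591 ± 0.143 CPM against 0.717 ± 0.168 CPM (SD, n = 3 and 4). Its groups overlapped, and edgeR put the log2 change at 0.28 ± 0.29 (adjusted p = 0.693). Despite their neighbouring positions, Wnt3 stood at 34.9 FPKM and Wnt9b at 0.147 FPKM in the mean of 7 libraries.

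Wnt6 (ENSMUSG00000033227.7, chromosome 1 from 74771892 to 74785322, plus strand) gave 2, 5 and 2 counts in water 1 to 3 and 6, 9, 19 and 8 counts in DSS 1 to 4. The CPM of the groups did not overlap, but the gap was narrow, from 0.240 CPM in water 2 to 0.243 CPM in DSS 4, and DSS 3 alone reached 0.652 CPM. Without a low-count filter the edgeR adjusted p of Wnt6 was 0.391, and 0.684% of genes were then called higher and 0.573% lower. Wnt11 (ENSMUSG00000015957.12, chromosome 7 from 98835112 to 98855195, plus strand) gave 0, 0 and 2 counts in water and 0, 1, 4 and 3 in DSS, and an edgeR adjusted p of 0.708 without the filter. A difference in Wnt11 was not detectable at this depth. The antisense gene Gm8398 shares 8.8% of its exon bases, and the counting did not use strand.

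Of the 19 Wnt genes, 7 passed the filter, 12 did not, and Wnt7a had 0 counts in every library. The 7 had a median log2 change of -0.23, with 5 estimates below 0 and 0 called, and the median was -0.003 with library totals alone, where that of all genes was 0.23. Wnt10a, which lies 6.19 kb beyond Wnt6, was the tested ligand with the smallest p, averaging 1.31 ± 0.519 CPM without and 0.547 ± 0.402 CPM with DSS (SD, n = 3 and 4). Its log2 change was -1.24 ± 0.52 (edgeR adjusted p = 0.299). Wnt5a was at 3.45 ± 0.242 and 2.94 ± 0.571 CPM, Wnt9a at 1.40 ± 0.220 and 1.07 ± 0.297 CPM, and Wnt2b at 1.53 ± 0.346 and 1.26 ± 0.203 CPM in water and DSS. Wnt5a and Wnt2b are known products of the stroma around the crypt. The 10 mesenchymal markers summed to between 1.43 and 2.05 CPM in water and between 2.24 and 3.09 CPM in DSS. Most of that sum was Pdgfrb, the 1 marker of the list that was tested. Pdgfrb was at 1.92, 1.58 and 1.22 CPM in water and 1.94, 2.41, 2.85 and 2.15 CPM in DSS. Its DSS libraries all lay above its water libraries, as for 7.4% of the genes tested. Its edgeR log2 change was 0.58 ± 0.21 (adjusted p = 0.253). Col1a1, Col1a2, Col3a1 and Lum had 0 counts in all 3 water libraries, and the part of stromal RNA in the ligand values was not tested.

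**Figure D2:**
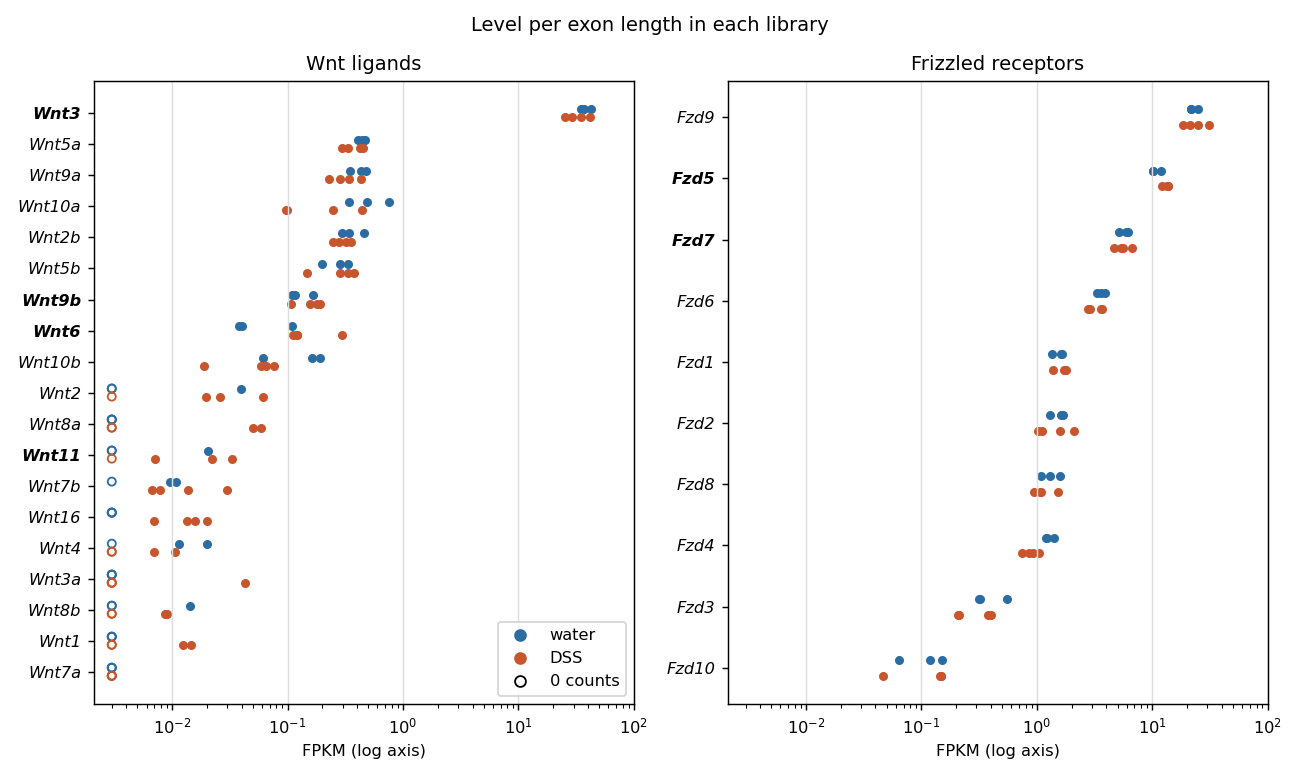
FPKM on a log axis for the 19 Wnt ligand genes (left) and the 10 Frizzled genes (right), 1 point per library, water in blue and DSS in orange, with open points at the left edge for 0 counts and the followed genes in bold. Wnt3 stands at 25.1 to 42.4 FPKM and every other ligand below 1 FPKM, while Fzd9, Fzd5 and Fzd7 lead the Frizzled genes.

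Porcn (ENSMUSG00000031169.13, chromosome X from 8193848 to 8206525, minus strand) had the second smallest unadjusted p of the members. It stood at 6.82, 7.01 and 7.67 CPM in water 1 to 3 and at 6.87, 6.00, 5.11 and 5.52 CPM in DSS 1 to 4. DSS 1 lay within the water range and the other 3 below it. edgeR put the log2 change at -0.29 ± 0.13 (adjusted p = 0.315), and the 95% interval of the fold ran from 0.671 to 0.999. The estimate stayed below 0 in all 16 alternatives, between -0.47 for the 10-week mice and -0.06 with library totals alone, and 0 of them reached an adjusted p under 0.05, the lowest being 0.166.

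The 9 genes of Wnt acylation and secretion, of which Porcn is one, stood mostly lower after DSS. Estimates were below 0 for 7 of the 9, with a median of -0.19, and 6 of the 9 had all DSS libraries below all water libraries, beside 7.52% of genes tested. The gap was narrow for Wls (73.31 CPM in water 2, 73.05 in DSS 1) and Vps35 (111.8 CPM in water 2, 110.0 in DSS 2). The list was chosen with earlier results of these data known. With library totals alone the median was 0.03, beside 0.23 over all genes, against -0.19 beside -0.002 with TMM scaling. With library totals alone 1 of the 9 was separated below and 1 above, as were 175 and 5516 of the 17449 genes. edgeR called 0 of the 9, and DESeq2 called Tmed2 and Tmed5 lower. Tmed2, which sorts cargo between endoplasmic reticulum and Golgi, was 193, 192 and 195 CPM in water and 156, 150, 144 and 149 CPM in DSS, with an edgeR log2 change of -0.37 ± 0.06 (adjusted p = 0.123). It also passed in edgeR without DSS 1 (adjusted p = 0.0400), where 0.97% of genes were called higher and 0.779% lower, and without the low-count filter (adjusted p = 0.0211). Tmed5, of the same family, was at -0.23 ± 0.06, and Tmed10 at -0.30 ± 0.09. These vesicle proteins carry many cargoes besides Wnts. Wls, the dedicated Wnt carrier, was 77.8, 73.3 and 74.5 CPM in water and 73.1, 71.3, 54.9 and 63.8 CPM in DSS, and its log2 change was -0.19 ± 0.10 (edgeR adjusted p = 0.367). Vps35, a retromer subunit that recycles Wls, was at -0.09 ± 0.05, its partner Vps26a at 0.07 ± 0.06, and the sorting nexin Snx3 at -0.17 ± 0.07. The summed level of these 9 genes ran from 781 to 787 CPM in water and from 631 to 705 CPM in DSS. The Paneth marker sums were also lower in every DSS library, though taken singly 4 of the 11 markers were separated this way. The part of the markers was not tested.

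Fzd5 (ENSMUSG00000045005.9, chromosome 1 from 64730558 to 64737751, minus strand) was the tested member whose groups did not overlap. Its level was 81.5, 70.5 and 70.1 CPM in water 1 to 3 and 94.9, 94.3, 93.4 and 83.3 CPM in DSS 1 to 4. Its lowest DSS value exceeded its highest water value, as for 7.4% of the genes tested, but DSS 4 was close to water 1. The average was 74.0 ± 6.49 CPM without DSS and 91.5 ± 5.47 CPM with it (SD, n = 3 and 4). The log2 change was 0.31 ± 0.08, with a 95% interval of the fold from 1.09 to 1.39. The unadjusted edgeR p was 0.00329 and the adjusted p 0.153, so it did not pass over all genes. It passed in DESeq2 (adjusted p = 0.0154) and in edgeR with library totals alone (0.54, adjusted p = 0.0352), a scaling under which 11.9% of genes were called higher and 0.16% lower and Fzd5 stood 0.30 above the median of all genes. Over its 16 alternatives the adjusted p ran from 0.0154 to 0.634, and every estimate was above 0.

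The names of the water libraries and of DSS 4 carry the run field 6, those of DSS 1 and DSS 3 carry 8, and DSS 2 was merged, and DSS 4 was the lowest DSS library for Fzd5. With run field 6 alone, DSS 4 against the 3 water libraries, the log2 change was 0.16 (edgeR adjusted p = 0.634), where the lone DSS library is taken to vary as the water libraries do, and 0.0165% of genes were called higher and 0.033% lower. The 10-week mice alone gave 0.37, with a single water library taken to vary as the DSS libraries do (edgeR adjusted p = 0.443). The antisense gene Gm38058 shares 1233 exon bases with Fzd5, or 17.8% of them, and reads there cannot be told apart without strand. Gm38058 itself was assigned 4, 5 and 9 counts in water and 6, 8, 16 and 11 in DSS, against 1468 to 3204 counts of Fzd5.

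Fzd7 (ENSMUSG00000041075.8, chromosome 1 from 59482424 to 59486955, plus strand), known as a Wnt receptor of the crypt base stem cells, showed no such separation. It was 27.7, 23.4 and 27.0 CPM in water and 30.0, 24.4, 21.0 and 25.1 CPM in DSS, with DSS 1 above and DSS 3 below all water libraries. The log2 change was -0.05 ± 0.12 (edgeR adjusted p = 0.872) with a 95% interval from -0.32 to 0.21, and it took the opposite sign with library totals alone (0.17). Per length, Fzd5 exceeded Fzd7 1.93-fold, 1.98-fold and 1.70-fold in water 1 to 3, and 2.07-fold, 2.53-fold, 2.92-fold and 2.18-fold in DSS 1 to 4. The ratio was thus higher in every DSS library than in any water library. The mean log2 ratio was 0.90 ± 0.12 in water and 1.26 ± 0.22 in DSS (SD, n = 3 and 4), a difference of 0.37, and the exact two-sided permutation test gave p = 0.0571, the smallest it allows here (adjusted p = 0.229 over 4 ratios). By absolute difference the exact permutation p was also 0.0571 (adjusted p = 0.171).

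The sequences before the start sites of Fzd5, Fzd7 and Wnt3 are shown because the ratio of the first pair differed between the groups without overlap and the third is the ligand gene that dominated. They come from RefSeq on GRCm38.p6, the assembly behind mm10, where 7 of the 10 genes had an entry, and end at or before the first counted base. Each is read 5′ to 3′ on the gene's strand. Capitals mark the TCF cores CTTTGA and CTTTGT and the CCAAT box, each on either strand; none of these overlaps another here.
Fzd5, chr1:64737752-64738000, minus strand: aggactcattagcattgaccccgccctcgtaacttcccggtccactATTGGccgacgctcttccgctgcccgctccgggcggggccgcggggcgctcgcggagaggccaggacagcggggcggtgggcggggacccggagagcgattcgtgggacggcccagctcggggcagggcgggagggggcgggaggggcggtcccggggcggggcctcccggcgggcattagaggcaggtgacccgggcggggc
Fzd7, chr1:59481897-59482146, plus strand: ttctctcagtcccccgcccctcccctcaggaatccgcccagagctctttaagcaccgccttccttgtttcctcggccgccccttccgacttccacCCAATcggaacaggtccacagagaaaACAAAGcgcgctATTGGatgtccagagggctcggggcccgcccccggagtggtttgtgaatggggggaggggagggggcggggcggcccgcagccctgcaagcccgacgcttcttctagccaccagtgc
Wnt3, chr11:103773925-103774149, plus strand: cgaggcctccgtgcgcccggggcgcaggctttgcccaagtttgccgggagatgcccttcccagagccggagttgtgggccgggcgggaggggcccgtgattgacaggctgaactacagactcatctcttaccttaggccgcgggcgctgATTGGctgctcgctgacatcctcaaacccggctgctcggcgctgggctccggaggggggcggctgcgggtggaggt
The Fzd7 stretch of 250 bases held 1 CTTTGT core, which 16.5% of 32851 promoter stretches of this length hold, and 2 CCAAT boxes, which 33.8% hold at least once. The Fzd5 stretch of 249 bases and the Wnt3 stretch of 225 bases held 1 CCAAT box each and neither TCF core, and CTTTGA occurs in 13.8% of promoters. G and C made up 76.3% of the Fzd5 stretch, 65.2% of that of Fzd7 and 68.9% of that of Wnt3, beside a median of 52.4% over all promoters. These matches describe letters in the window and say nothing of binding.

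Fzd9 was the Frizzled gene with the highest level per length in all 7 libraries. It held 46.3% ± 2.43 of the Frizzled FPKM sum in water and 46.0% ± 5.17 in DSS (SD, n = 3 and 4). Fzd5 followed with 21.9% ± 2.08 and 25.9% ± 2.68, and Fzd7 with 11.8% ± 1.36 and 10.8% ± 1.31. Fzd9 itself was 49.96, 57.0 and 49.2 CPM in water and 57.2, 70.8, 42.6 and 48.5 CPM in DSS, with overlapping groups and a log2 change of 0.08 ± 0.16. All 10 Frizzled genes were tested, with a median log2 change of -0.06, 4 estimates above 0 and 6 below, and 0 called. Library totals alone turned this to 8 above and 2 below, with a median of 0.16 beside 0.23 over all genes. Fzd4 was the gene at the other end from Fzd5, with 8.11, 8.21 and 9.51 CPM in water and 6.25, 4.97, 5.70 and 7.04 CPM in DSS. Every DSS library of Fzd4 was below every water library, as for 7.52% of the genes tested. With library totals alone 0 of the 10 Frizzled genes were separated below, as were 175 of the 17449 genes. The log2 change of Fzd4 was -0.53 ± 0.14 (edgeR adjusted p = 0.162), and it passed in DESeq2 (adjusted p = 0.0368). Fzd6 was at -0.16 ± 0.13, Fzd3 at -0.41 ± 0.30 and Fzd8 at -0.20 ± 0.20, and none of the 3 passed.

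Both co-receptors were at similar levels in the 2 groups. Lrp5 (ENSMUSG00000024913.16, chromosome 19 from 3584828 to 3686564, minus strand) was 94.3, 96.9 and 87.9 CPM in water and 101, 95.6, 98.0 and 94.7 CPM in DSS. Lrp6 (ENSMUSG00000030201.15, chromosome 6 from 134446476 to 134566965, minus strand) was 116, 114 and 118 CPM in water and 123, 107, 128 and 131 CPM in DSS. Both overlapped between the groups, and DSS 2 was the lowest of all 7 libraries for Lrp6. The log2 changes were 0.07 ± 0.06 for Lrp5 and 0.08 ± 0.08 for Lrp6 (edgeR adjusted p of 0.638 and 0.662), with 95% intervals of the fold from 0.955 to 1.15 and from 0.938 to 1.19. With library totals alone Lrp5 stood at 0.30 and passed (edgeR adjusted p = 0.0414), beside the shift of 0.23 in the median of all genes. Per length the pair was nearly balanced, with log2 ratios of Lrp5 to Lrp6 of 0.19, 0.26 and 0.07 in water 1 to 3 and of 0.20, 0.32, 0.11 and 0.02 in DSS 1 to 4. The mean log2 ratio differed by -0.009 between the groups (exact two-sided permutation p = 0.971, adjusted p = 0.971).

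Among the other Wnt receptors, Ryk, a kinase-like receptor, was at -0.02 ± 0.06, Ror2, a receptor of Wnt5a, at 0.03 ± 0.10 and Ptk7 at -0.02 ± 0.10, and Ror1 did not pass the filter. None of the 5 tested genes of this list, Lrp5 and Lrp6 included, had an unadjusted edgeR p under 0.05.

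Lgr4 (ENSMUSG00000050199.13, chromosome 2 from 109917647 to 110014257, plus strand) had the highest level per length of the 10 genes. It was 337, 387 and 320 CPM in water and 376, 382, 295 and 281 CPM in DSS. The libraries DSS 3 and DSS 4 lay below all water libraries, and DSS 1 and DSS 2 between water 1 and water 2. Water averaged 348 ± 34.4 and DSS 333 ± 52.9 CPM (SD, n = 3 and 4), with a log2 change of -0.06 ± 0.13 (edgeR adjusted p = 0.860) and a 95% interval of the fold from 0.783 to 1.17. The estimate was above 0 with library totals alone (0.16), with age as a covariate (0.02), without water 2 (0.02) and without DSS 4 (0.01). It was lowest, at -0.32, with run field 6 alone, where DSS 4 is the only DSS library.

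Lgr5, the stem cell counterpart of Lgr4, was lower in the DSS mean. It was 168, 112 and 102 CPM in water and 118, 76.6, 56.7 and 62.4 CPM in DSS, with a log2 change of -0.70 ± 0.26 (edgeR adjusted p = 0.247), and DSS 1 lay within the water range. The Lgr5 locus carries the reporter in all mice, and whether on every allele is not stated. The Lgr5 values and the ratios to Lgr5 are therefore of a locus modified in part or in full. Lgr4 exceeded Lgr5 per length 3.50-fold, 6.01-fold and 5.50-fold in water 1 to 3 and 5.56-fold, 8.70-fold, 9.07-fold and 7.86-fold in DSS 1 to 4. DSS 1 was within the water range and the other 3 above it. The mean log2 ratio was 2.28 ± 0.42 in water and 2.94 ± 0.32 in DSS (SD, n = 3 and 4), a difference of 0.65 that did not pass the exact two-sided permutation test (p = 0.114, adjusted p = 0.229). Without the low-count filter Lgr5 passed in edgeR (adjusted p = 0.0359). Without DSS 4, where 0.0524% of genes were called higher and 0.0% lower, 0 members were called. Of the 9 genes of the R-spondin axis, Lgr6 and the 4 R-spondin genes did not pass the filter. Rnf43, a ligase that removes Frizzled receptors, was at -0.01 ± 0.10, and its relative Znrf3 at 0.19 ± 0.09 (edgeR adjusted p = 0.345). Znrf3 passed with library totals alone (edgeR adjusted p = 0.0383), a scaling that called 11.9% of all genes tested higher.

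**Figure D3:**
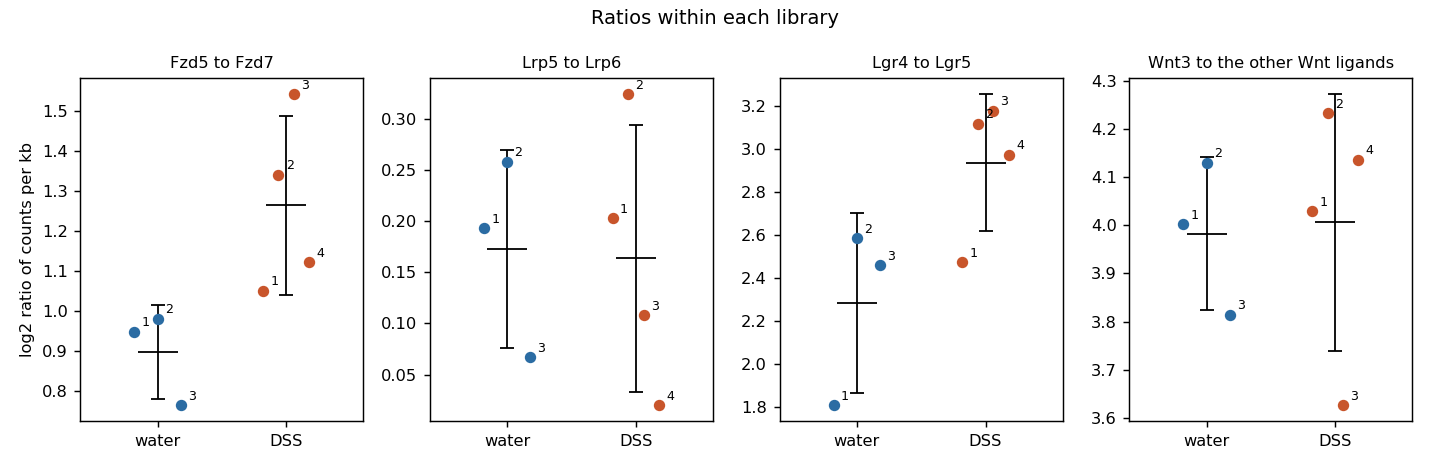
Log2 ratios of counts per kilobase within each library for 4 pairs, with water in blue, DSS in orange, replicate numbers beside the points and bars for the mean ± SD (n = 3 and 4). The Fzd5 to Fzd7 ratio does not overlap between the groups (0.77 to 0.98 in water, 1.05 to 1.54 in DSS), and the other 3 ratios do.

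Of the 95 listed pathway genes, the 10 members included, 66 were tested and 0 were called by edgeR. Of these 66, 15 had an unadjusted edgeR p under 0.05, 5 higher and 10 lower. Over all genes the share was 15.7%, with 8.36% higher and 7.35% lower. Of the 10 lower, 5 belonged to the list of Wnt acylation and secretion. Axin2, a negative regulator and classical Wnt target, was 182, 169 and 147 CPM in water and 203, 208, 190 and 204 CPM in DSS. Every DSS library of Axin2 lay above every water library, as for 7.4% of the genes tested. Its log2 change was 0.28 ± 0.08 (edgeR adjusted p = 0.187), and DESeq2 called it (adjusted p = 0.0291). Bcl9l, a beta-catenin co-activator, was at 0.30 ± 0.08 (edgeR adjusted p = 0.166, DESeq2 adjusted p = 0.0333), while its relative Bcl9 was at -0.17 ± 0.06. Lef1, a TCF family member, was low in both groups, averaging 0.378 ± 0.116 CPM without and 0.715 ± 0.175 CPM with DSS (SD, n = 3 and 4). Of the 17 receptor-proximal and destruction complex genes, 11 estimates were above 0 and 6 below, with a median of 0.03, and all 17 were above 0 with library totals alone, with a median of 0.26 beside 0.23 over all genes. The kinase genes Csnk1a1 and Gsk3b were at 0.01 ± 0.06 and 0.03 ± 0.07, Apc at -0.02 ± 0.08, Axin1 at 0.10 ± 0.06 and Dvl3, which relays the signal from Frizzled, at 0.16 ± 0.07. Of the other genes of this list above 5 FPKM, Dvl1 was at -0.04 ± 0.07 and Gsk3a at -0.06 ± 0.07. The casein kinase genes Csnk1d, Csnk1e, Csnk1g2 and Csnk1g3 were at 0.06 ± 0.06, 0.14 ± 0.08, 0.04 ± 0.08 and -0.04 ± 0.05. Among the nuclear partners, Pygo2 was at 0.13 ± 0.07 and Tcf7 at 0.14 ± 0.11, and none of these 8 passed in edgeR with TMM scaling. With library totals alone Csnk1e, Csnk1g2 and Pygo2 passed (edgeR adjusted p of 0.0481, 0.0438 and 0.0372). So did Axin1, Axin2, Bcl9l and Dvl3 (edgeR adjusted p of 0.0403, 0.0352, 0.0356 and 0.0356). Under that scaling 11.9% of all genes tested were called higher and 0.16% lower. Ctnnb1, encoding beta-catenin, was 556, 546 and 559 CPM in water and 538, 505, 502 and 499 CPM in DSS, a log2 change of -0.12 ± 0.07 (edgeR adjusted p = 0.458).

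Of 17 Wnt inhibitors, 7 were tested, with 3 estimates above 0 and 4 below, and the reverse with library totals alone, with a median of 0.19 beside 0.23 over all genes. Wif1, which binds and sequesters Wnt ligands, was 6.06, 5.43 and 8.51 CPM in water and 5.11, 3.09, 3.50 and 4.61 CPM in DSS, a log2 change of -0.72 ± 0.22 (edgeR adjusted p = 0.190, DESeq2 adjusted p = 0.0493). All its DSS libraries lay below all water libraries, as for 7.52% of the genes tested, although DSS 1 was near water 2. With library totals alone 0 of the 7 tested inhibitors were separated below, Wif1 included. Kremen1, a receptor for Dkk inhibitors, was at 0.19 ± 0.09, Dkk3 at -0.33 ± 0.23 and Sfrp5 at -0.42 ± 0.33. None of the 3 passed in edgeR with TMM scaling, and Kremen1 passed with library totals alone (adjusted p = 0.0362). The plot of pathway changes places all 66 genes side by side.

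**Figure D4:**
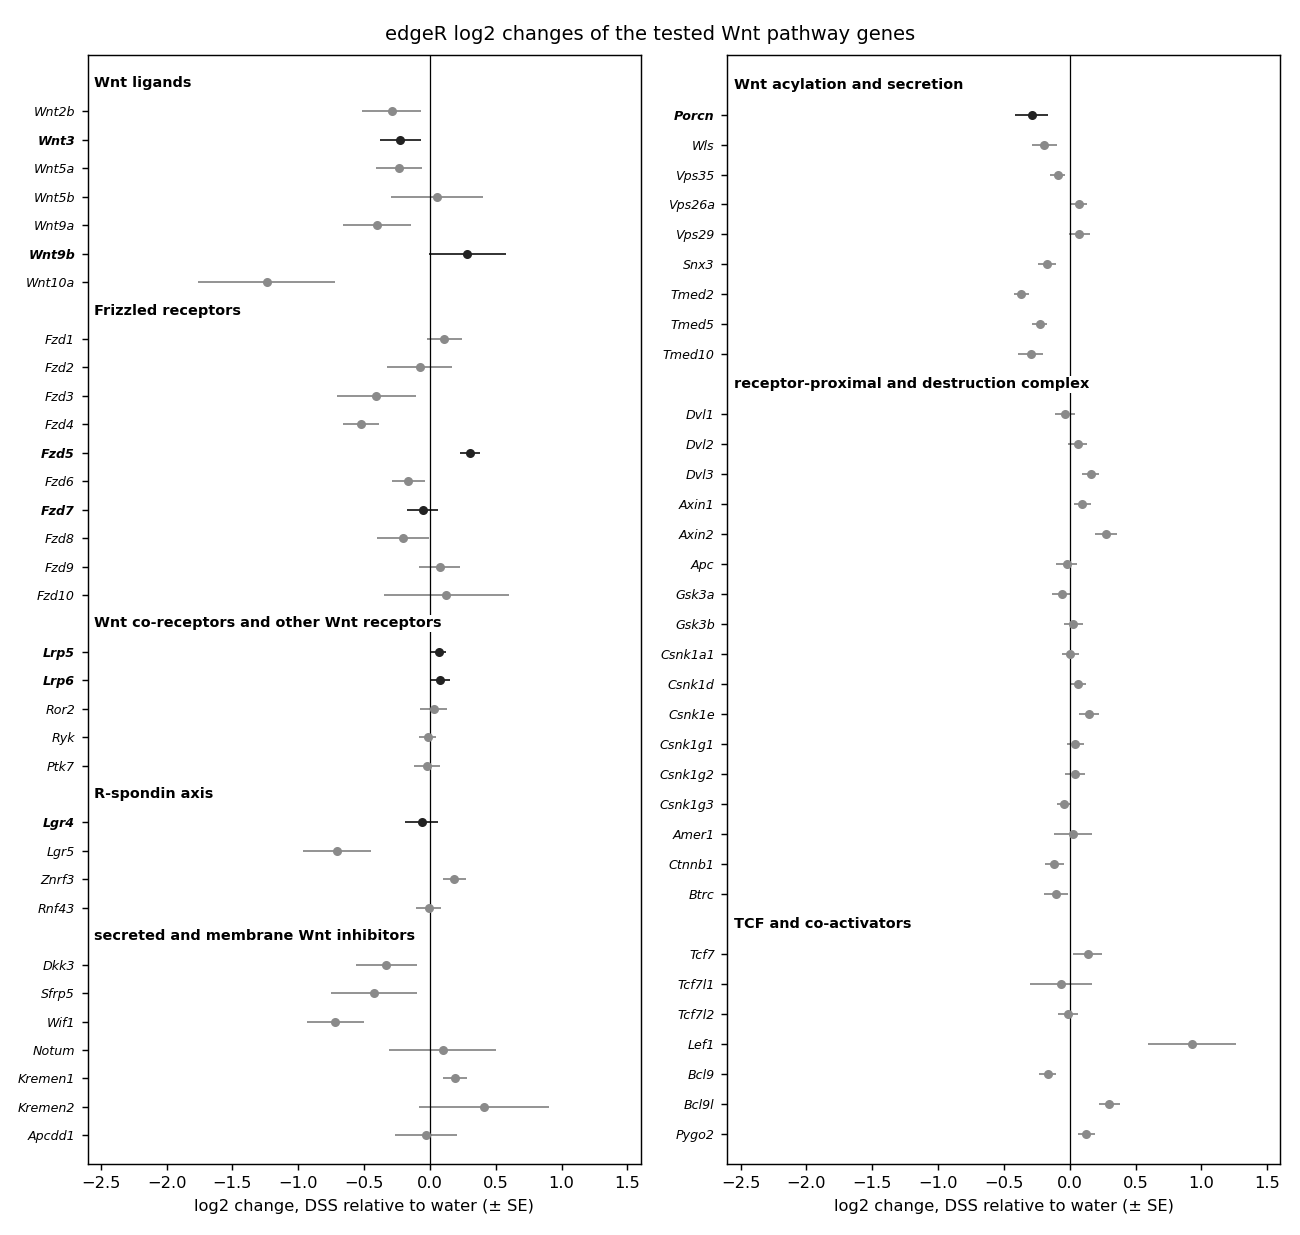
Log2 change, DSS relative to water, with its SE from the edgeR fit for the 66 tested pathway genes, grouped by role and with the followed genes in bold. Fzd5 at 0.31 and Fzd4 at -0.53 stand at opposite sides among the Frizzled genes, and 7 of the 9 genes of Wnt acylation and secretion lie below 0.

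Ordered by FPKM over the 7 libraries, the members ran from Lgr4 at 57.7 ± 7.32, Wnt3 at 34.9 ± 6.27 and Fzd5 at 12.2 ± 1.56 to Lrp5 at 9.81 ± 0.421, Lrp6 at 8.74 ± 0.610, Fzd7 at 5.63 ± 0.660, Porcn at 2.14 ± 0.303, Wnt9b at 0.147 ± 0.0353, Wnt6 at 0.120 ± 0.0863 and Wnt11 at 0.0118 ± 0.0134 (SD, n = 7). The ranges of Lgr4 (47.8 to 65.7 FPKM) and Wnt3 (25.1 to 42.4 FPKM) did not touch. Fzd5 and Lrp5 exchanged no place within any of the 7 libraries, but the ranges of Fzd5 (10.1 to 13.7 FPKM) and Lrp5 (9.02 to 10.4 FPKM) overlapped, as did those of Lrp5 and Lrp6. Wnt9b exceeded Wnt6 in 5 of 7 libraries, so these neighbours were not ordered beyond their spread. Exon length is the union over all transcripts of a gene, so a gene whose expressed transcripts are shorter than this union has its level understated.

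For Wnt3, Fzd5 and Lgr4, genes with the most similar course over the 7 libraries were sought by the root mean square difference in centred log2 CPM, among 9120 genes averaging 3 or more on the log2 CPM scale. For Wnt3 the closest were Sec11c (0.05), Rab27a (0.06) and Tmem62 (0.06), where Wnt3 itself varied by 0.25 about its mean. Sec11c was 214, 239 and 211 CPM in water and 195, 233, 147 and 181 CPM in DSS, high in water 2 and DSS 2 and lowest in DSS 3, as Wnt3 was. For Fzd5 the closest were Hmga1 (0.03), Plcb3 (0.04) and Zfp36l2 (0.05), with Fzd5 itself at 0.18. Hmga1 was 74.6, 65.6 and 66.9 CPM in water and 87.1, 92.3, 86.2 and 79.6 CPM in DSS. For Lgr4 the closest were Fth1 (0.03), Grina (0.04) and Cib2 (0.04), with Lgr4 itself at 0.17. Hmga1 and Fth1 have processed pseudogenes with which reads can be shared. These genes are named for their likeness in 7 libraries alone, which a search over so many genes always supplies.

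**Figure D5:**
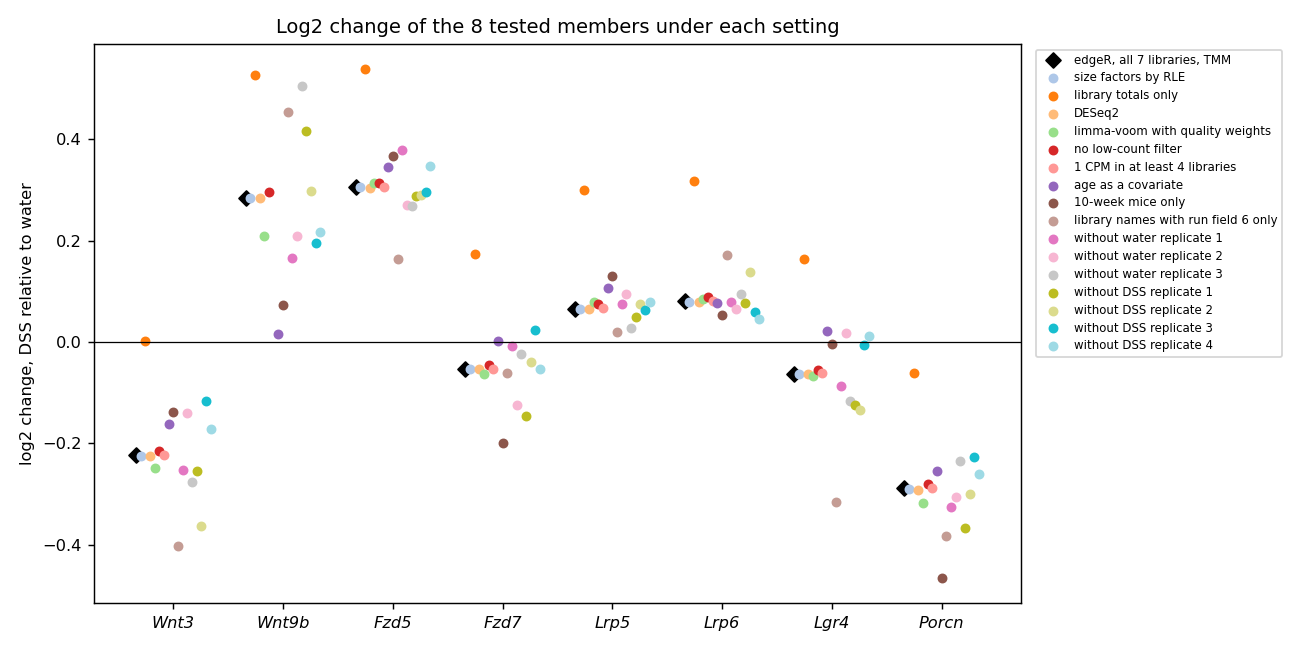
Log2 change of the 8 tested members under the reported fit (black diamonds) and under each alternative (coloured points). Wnt9b, Fzd5, Lrp5 and Lrp6 are above 0 and Porcn below 0 throughout. Wnt3, Fzd7 and Lgr4 reach or cross 0 in some alternatives, among them library totals alone, which moves the median of all genes to 0.23.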

How the data were processed

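Polyadenylated RNA of Paneth cells sorted by CD24 and side scatter, with cells positive for TER119, CD31 or CD45 excluded, was sequenced in 7 libraries. The authors deposited raw counts per gene, which the file headers credit to featureCounts 1.5.3 (1.5.2 per the submitters' processing notes, which also name STAR 2.5.3a, DESeq2 and mm10). Per the file headers, the counting summed exons per gene, took primary alignments, asked for 0.8 of a read to overlap, did not use strand and named no option to drop duplicates. Symbols came from GENCODE M21 by identifier, for 52403 of 52550 genes. Every pair of libraries differed by more than sampling noise, with 14.5 as the smallest chi-square per degree of freedom.

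edgeR 4.0.16 in R 4.3.3 kept 17449 genes by filterByExpr, scaled by TMM (factors 0.899 to 1.14) and compared DSS with water by the quasi-likelihood test without covariate. Benjamini-Hochberg adjustment ran over all genes tested, with a threshold of 0.05, and 95% intervals used the fit's degrees of freedom, covering the spread between these libraries. The 4 within-library ratios were tested by exact permutation. FPKM divide TMM CPM by exon length. Alternatives were RLE factors, library totals, DESeq2 1.42.0 on the filtered genes, limma-voom 3.58.1 with quality weights, 2 other filters, age as a covariate, 10-week mice, run field 6, and leaving out each replicate. The edgeR quasi-likelihood fit was tested on simulated data. The members and gene lists were chosen with earlier results of these data known. Named were the 10 members, from each pathway list up to 4 other genes with the smallest p and those above 5 FPKM, and 3 genes most alike to each of Wnt3, Fzd5 and Lgr4, leaving out pseudogene, predicted, unnamed and clone symbols.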

Additional observations from a re-analysis of the deposited data

Results flagged for a closer look

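Fzd5 in DSS 4 lay far from the other 3 DSS libraries: on the log2 CPM scale its gap to the nearest was 0.875 of the whole range of the group, past Dixon's 95% limit for 4 samples. Fzd5 was 83.3 CPM there against 93.4 to 94.9 CPM. Ctnnb1 in DSS 1 did the same on the high side, at 0.848 of the range, with 538 CPM against 499 to 505 CPM. These were 2 of 56 series examined, of which chance flags about 5% each. The groups of 3 water libraries were not examined in this way.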

How the results depend on the processing

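No paired analysis was possible because replicate numbers were given in accession order. Library totals alone called 2084 genes higher and 28 lower, with 2 members and 11 pathway genes higher, and moved the median of all genes to 0.23. DESeq2 called 367 and 306, with 1 member higher and 3 pathway genes higher and 4 lower. Without the low-count filter 240 and 201 genes were called, with 2 pathway genes lower, and with run field 6 alone 3 and 6. Leaving out single replicates gave 0 to 168 genes higher and 0 to 135 lower, and 0 to 1 pathway genes lower, with the highest numbers without DSS 1; without DSS 4, 9 genes were higher. No member was called when any single replicate was left out. The cause of these differences was not tested.

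The sign turned for Wnt3 (0.000766), Fzd7 (0.17) and Lgr4 (0.16) with library totals, for Fzd7 (0.00184) and Lgr4 (0.022) with age as a covariate, for Lgr4 without water 2 (0.018) or DSS 4 (0.01), and for Fzd7 without DSS 3 (0.023). Over single replicates left out, Fzd7 ran from -0.146 to 0.023 and Lgr4 from -0.134 to 0.018. Differences in log2 ratio near 0 turned too: Lrp5 to Lrp6 with the 10-week mice (0.083) and Wnt3 to the other ligands without length (-0.005). Without single replicates the former ran from -0.063 to 0.038 and the latter from -0.060 to 0.15, with signs turned at 0.001, 0.033, 0.009 and 0.038, and at -0.060, -0.052 and -0.019. RLE factors, limma-voom, 1 CPM in at least 4 libraries and age as a covariate gave 0 calls, as reported. The 10-week mice and run field 6 leave 1 library in a group, so calls or their absence there say little. Wnt6 and Wnt11 are limited by depth.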
